A study of Mus musculus with 9 samples.

Results

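The genes described here are 33 genes of complement, coagulation and fibrinolysis, chosen by name as complement components, receptors and regulators, clotting factors, and plasminogen activators with their receptor and inhibitors. They were taken from the 57238 entries of the deposited table of reads per gene, and all 33 names were found once. The RNA came from BMDCs, dendritic cells grown from mouse bone marrow with the cytokine GM-CSF. All marrow came from wild-type C57BL/6 mice, aged 8 to 10 weeks per the study's methods, and was cultured with GM-CSF at 20 ng/ml for 6 days per the labels (the methods give 7 days). Control BMDCs (CTR) received no exosomes, the NE group received exosomes of NIH-3T3 cells, a non-cancerous fibroblast line, and the TDE group received tumor-derived exosomes, the latter 2 for 24 h. Each group had 3 libraries. The labels name neither the tumor line nor the exosome dose. The study's methods give a cervical or a colon carcinoma line as the source of exosomes not otherwise specified. Nothing says that libraries of a group came from separate cultures or mice, so the p-values measure the spread between these libraries, which may be technical. The comparisons of TDE with CTR and of TDE with NE use the same TDE libraries and are therefore given side by side.

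Complement is a cascade of plasma proteins in which C1, made of the recognition subunit C1q and the proteases C1r and C1s, or the alternative pathway of factor B and properdin, leads to cleavage of C3 and C5. The fragments released are sensed by the receptors C3aR and C5aR1, and membrane proteins such as CD55 and CD59 restrain the cascade on the cell's own surface. Coagulation starts when tissue factor binds factor VII and ends in thrombin and fibrin, thrombomodulin and the protein C receptor turn thrombin's action toward anticoagulation, and the plasminogen activators tPA and uPA start the removal of fibrin. The liver makes most of these proteins in plasma, while macrophages and dendritic cells are the main source of C1q and also make C3, factor B and properdin.

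The libraries held between 17469782 and 21092943 estimated reads, and the limit that a count of 0 allows (3 reads, counting error only) was 0.142 to 0.172 CPM (reads scaled to the library total, before normalization). CTR replicate 1 stood apart. Its mean correlation with the other controls was 0.870, against at least 0.941 among the other 8 libraries, and genes shorter than 1300 bases lay 1.14 log2 units above the other controls in it (median), while genes over 3000 bases lay 0.56 below. NE replicate 3 deviated in the same direction by less, with medians 0.34 above the other NE libraries for the short genes and 0.18 below for the long. Results are therefore also given without CTR replicate 1, in a fit that keeps NE replicate 3. Dendritic cell markers were present in every library, with Itgax at 107 to 178 CPM. Of the 8 genes of that list, 5 were called lower in TDE against CTR (9.34% of all genes were) and 2 against NE (7.21%). Those called against CTR were Cd74, H2-Ab1, H2-Aa, Ccr7 and Cd83, and those against NE were Itgax and H2-Aa. Flt3 and Zbtb46 were called in neither, at log2 fold changes of 0.02 and -0.32 against CTR and -0.02 and -0.34 against NE. The list's summed level, of which Cd74 was the largest part, was 4170 to 12961 CPM in CTR, 3961 to 4985 CPM in NE and 2147 to 2277 CPM in TDE. A list of 8 macrophage genes summed to 2798 to 3722 CPM in CTR, 3207 to 3821 CPM in NE and 6390 to 6821 CPM in TDE, with Adgre1 and Marco called higher. The other 6 were not called, and Cd68, Mertk, Mrc1 and Cd163 had log2 fold changes of -0.49, -0.38, -0.32 and -0.29 against CTR. A list of 9 neutrophil genes summed to 7067 to 28806 CPM, 7449 to 10750 CPM and 3032 to 3326 CPM, with 8 called lower against CTR and 6 against NE. All 6 eosinophil genes of a list were called lower against both CTR and NE (621 to 1669 CPM in CTR, 634 to 721 CPM in NE and 115 to 144 CPM in TDE when summed), as were the 4 tested genes of a list of 5 for mast cells and basophils (66.6 to 227 CPM, 75.0 to 105 CPM and 13.1 to 14.4 CPM). CTR replicate 1 gave the upper end of the CTR range in all of these sums except that of the macrophage genes. Fewer cells of a type and less RNA per cell cannot be told apart in such bulk samples, and the part of these cell types in the results was not tested.

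Promoters of 24 of the 33 genes (29 promoters) were found in RefSeq's table for GRCm38.p6, each reaching from 250 bases before to 50 bases after the start. The AP-1 motif (TGANTCA, either strand) was in 24.1% of the members' promoters, against 7.81% of all 32851 promoters of that length, and lay in those of C3ar1, F2r, F3, Plaur, Procr and Serpinb2. The C/EBP motif (TTGCNNAA) was in 27.6% against 10.8%, the ETS and PU.1 motif (GAGGAA) in 44.8% against 28.3%, the TATA box (TATAAA) in 20.7% against 13.6%, the hypoxia response element (NACGTG) in 10.3% against 19.6%, the NF-kB motif in 3.45% against 1.63%, and the CRE (TGACGTCA) in 0% against 1.79%. The motifs were matched on both strands, these shares are descriptions, and a match is not a binding site. Below are the 120 bases before the start of 4 of the 7 called genes for which this stretch was extracted, namely those that hold a match (those of F5, C1s1 and C5ar2 hold none): C3 and C3ar1 on the ligand and receptor side of 1 pathway, Plaur as the receptor of uPA, and C1qb of the C1q cluster. They are written 5′ to 3′ on the gene's strand, with matches to these motifs in capitals, which do not overlap each other.
C3 (C/EBP in capitals, chr17:57228137-57228256, minus strand): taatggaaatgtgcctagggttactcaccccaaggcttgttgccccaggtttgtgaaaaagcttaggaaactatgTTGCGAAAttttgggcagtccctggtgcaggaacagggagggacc
C3ar1 (AP-1, then NF-kB read on the other strand, chr6:122856162-122856281, minus strand): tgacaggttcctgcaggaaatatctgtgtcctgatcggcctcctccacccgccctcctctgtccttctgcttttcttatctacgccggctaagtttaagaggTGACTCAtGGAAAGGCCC
Plaur (AP-1, then C/EBP read on the other strand, chr7:24462363-24462482, plus strand): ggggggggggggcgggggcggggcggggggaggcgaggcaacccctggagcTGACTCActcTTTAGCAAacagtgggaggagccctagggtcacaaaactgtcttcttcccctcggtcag
C1qb (ETS and PU.1, chr4:136886201-136886320, minus strand): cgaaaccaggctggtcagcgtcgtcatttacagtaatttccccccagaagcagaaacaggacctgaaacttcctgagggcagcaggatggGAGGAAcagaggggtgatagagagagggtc

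TDE-treated BMDCs had more mRNA of C1s1, Cfb, Plat, Procr, C3, C1ra, Tfpi and C3ar1 than CTR BMDCs, and less of F5, C1qb, F2r, Thbd, C5ar2, C5ar1, Plaur and Cr1l. Of the 33 genes, 30 passed the filter on low counts and 16 of these 30 were called in TDE against CTR at an adjusted p under 0.05 (edgeR's quasi-likelihood test with Benjamini-Hochberg adjustment over all genes), against 16.9% of all 15028 genes tested. The 8 that rose and the 8 that fell stood against 7.57% of all genes that rose and 9.34% that fell. Against NE, 16 of 30 were also called, 7 higher and 9 lower, with 13.9% of all genes called, 6.73% higher and 7.21% lower. Of these, 14 were called in both comparisons in the same direction, 7 up and 7 down. Both comparisons use the same TDE libraries, and the share of all genes called in both was not counted, so the 14 show no excess. The libraries of TDE did not overlap those of CTR for 22 of 30 genes (44.0% of all genes) or those of NE for 25 of 30 (54.5%). The median log2 fold change of the 30 genes was -0.42 in TDE against CTR and -0.23 in TDE against NE, and its median size was 0.88 and 0.91, where all genes had a median size of 0.50 and 0.34. The members and the other gene lists were chosen with earlier results of these data known. Their shares and sizes beside those of all genes are therefore descriptions, and no excess can be read from them. Across 17 alternatives of the fit, C1ra, C1s1, C3, Cfb, Procr, C5ar1 and C5ar2 were called in every one in both comparisons, and of these C1s1, C3, Cfb and Procr also had a log2 fold change of at least 1 in size in both.

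**Figure D1:**
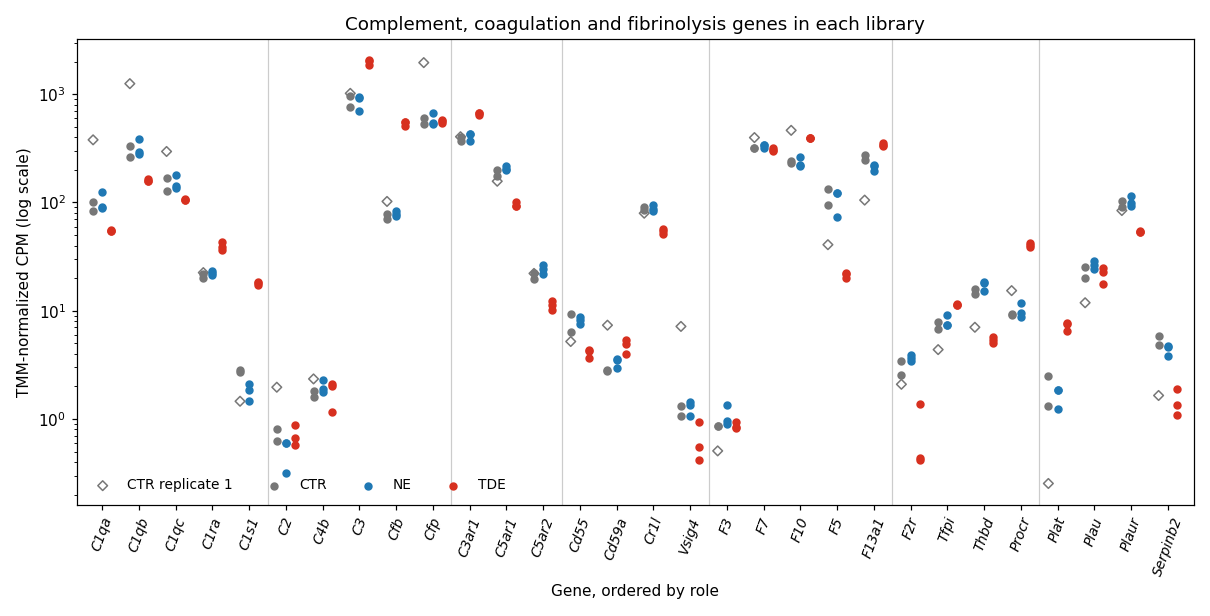
TMM-normalized CPM (log axis) of the 30 tested genes in each of 9 libraries, in order of role with grey lines between roles; each point is 1 library, and the open diamond is CTR replicate 1. The TDE points of Cfb, C1s1 and Procr lie above all others, those of F5, F2r and Thbd below, and the open diamond lies far above the other controls for C1qa, C1qb, Cfp and Vsig4.

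The proteases of C1 rose and its recognition subunit did not. C1s1, which encodes the protease C1s that cleaves C4 and C2, stood at 1.46, 2.71 and 2.83 CPM in the 3 CTR libraries, 2.12, 1.46 and 1.84 CPM in NE, and 18.0, 17.1 and 18.5 CPM in TDE. All TDE libraries lay above all others, and the CTR and NE libraries overlapped. Its log2 fold change was 2.93 ± 0.27 (SE, n = 3 per group, adjusted p = 0.000415 by edgeR) against CTR and 3.30 ± 0.27 (adjusted p = 0.000228) against NE, that is, 7.60-fold and 9.84-fold. C1ra, which encodes the protease C1r that activates C1s, stood at 22.5, 20.05 and 21.8 CPM in CTR, 22.2, 23.0 and 21.2 CPM in NE, and 38.5, 36.7 and 43.3 CPM in TDE. Its TDE libraries also lay apart, with log2 fold changes of 0.88 ± 0.12 (adjusted p = 0.00254 by edgeR) and 0.83 ± 0.12 (adjusted p = 0.00312). C1s1 thus moved from 0.113 ± 0.040 (SD, n = 3) of C1ra per length in CTR and 0.084 ± 0.017 in NE to 0.466 ± 0.023 in TDE. The near copies C1rb and C1s2 held at most 0.0531 and 0.499 CPM, and reads shared between copies are uncertain. C1s1 also shares 576 of its 3129 exon bases with the antisense gene Gm16567, which held 0 to 10 reads per library.

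C1qa, C1qb and C1qc, which encode the 3 chains of C1q and lie side by side on chromosome 4 (GRCm38, 136880129 to 136898803), were lower in every TDE library than in any other. C1qb stood at 1253, 331 and 264 CPM in CTR, 280, 294 and 386 CPM in NE, and 156, 158 and 163 CPM in TDE. CTR replicate 1 was far above the other controls, and the remaining CTR libraries overlapped those of NE. The log2 fold change of C1qb was -1.95 ± 0.54 (adjusted p = 0.0425 by edgeR) against CTR and -1.01 ± 0.53 (adjusted p = 0.281) against NE. C1qa, at 83.1 to 379 CPM in CTR, 89.4 to 125 CPM in NE and 54.1 to 55.2 CPM in TDE, missed the threshold in both (-1.78 ± 0.53, adjusted p = 0.0534, and -0.90 ± 0.52, adjusted p = 0.336). C1qc, at 127 to 296 CPM, 136 to 179 CPM and 105 to 108 CPM, missed it too (-0.89 ± 0.29, adjusted p = 0.0692, and -0.52 ± 0.29, adjusted p = 0.303). These are short genes of 1040 to 1203 bases, and genes of 1000 to 1300 bases had a median log2 fold change of -0.48 in TDE against CTR with CTR replicate 1 and -0.05 without it. Without that library the log2 fold changes against CTR were -0.77 ± 0.15 for C1qa (adjusted p = 0.00421 by edgeR), -0.91 ± 0.14 for C1qb (adjusted p = 0.00126) and -0.48 ± 0.14 for C1qc (adjusted p = 0.0267), and against NE they were -0.91 ± 0.14, -1.01 ± 0.13 and -0.53 ± 0.13. The call of C1qb held in 9 of 17 alternatives. It was lost with a replicate block, with only the 6 libraries compared or without any 1 NE or TDE library, with adjusted p up to 0.140. C1qc did not move in step with C1qb. Per length, C1qb was 4.68 times C1qc in CTR replicate 1 and 2.19 and 2.30 times in the other controls. It was 2.27 to 2.38 times C1qc in NE and 1.61 to 1.71 times in TDE. C1qa stayed closer to C1qb, at 0.317 to 0.329 of it per length in CTR, 0.318 to 0.340 in NE and 0.347 to 0.366 in TDE.

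C3 and factor B rose, and no other gene of the convertases did. C3, the central component that is cleaved into C3a and C3b and whose start follows the C/EBP match printed for it, stood at 1019, 770 and 967 CPM in CTR, 934, 927 and 703 CPM in NE, and 2038, 1846 and 2071 CPM in TDE. Every TDE library lay above every other, with log2 fold changes of 1.11 ± 0.18 (adjusted p = 0.00476 by edgeR) against CTR and 1.22 ± 0.18 (adjusted p = 0.00312) against NE. Cfb, which encodes factor B, the protease of the alternative pathway's C3 convertase, stood at 102, 70.5 and 77.8 CPM in CTR, 84.0, 77.6 and 75.6 CPM in NE, and 556, 504 and 559 CPM in TDE. The separation of the groups was wide, at 6.46-fold against CTR (log2 2.69 ± 0.17, adjusted p = 8.72e-05 by edgeR) and 6.82-fold against NE (2.77 ± 0.17, adjusted p = 5.71e-05). Per length, Cfb was 0.170 ± 0.019 (SD, n = 3) of C3 in CTR, 0.176 ± 0.023 in NE and 0.510 ± 0.003 in TDE. Ordered by CPM per kilobase over the 33 genes, Cfb was in place 13 in CTR (30.5) and place 4 in TDE (197), and C3 was in place 5 (179) and place 1 (386). Of its 2825 exon bases, Cfb shares 2246 with the read-through gene Gm20547, which was given 0 to 3 reads per library.

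Cfp, which encodes properdin, the stabilizer of that convertase, was among the genes with the highest level per length, at 526 to 1960 CPM in CTR, 535 to 669 CPM in NE and 547 to 583 CPM in TDE. The 1960 CPM were in CTR replicate 1, the groups overlapped, and the log2 fold change was -0.86 ± 0.46 (adjusted p = 0.210 by edgeR) against CTR, 0.00 ± 0.11 without that library, and -0.04 ± 0.45 (adjusted p = 0.977) against NE. C2, the protease of the classical convertase, and C4b, its other part, were low, at 0.318 to 1.97 CPM and 1.16 to 2.35 CPM, and neither passed the test. C2 and C4b lie near Cfb on chromosome 17, C4b from 34728380 and C2 up to 34898265 (GRCm38), and C4b has the near copy C4a (0.646 to 3.04 CPM), so that the division of reads between these copies is uncertain. C6, of the membrane attack complex, held 0 to 4 reads per library and was not tested.

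The receptor for C3a and those for C5a moved in opposite directions. C3ar1, the receptor for the C3 fragment C3a, stood at 405, 373 and 401 CPM in CTR, 428, 428 and 368 CPM in NE, and 667, 637 and 668 CPM in TDE. TDE libraries lay above all others, with log2 fold changes of 0.74 ± 0.13 (adjusted p = 0.00639 by edgeR) and 0.69 ± 0.13 (adjusted p = 0.00884). C5ar1, the receptor through which C5a draws in and activates myeloid cells, stood at 157, 199 and 178 CPM in CTR, 202, 202 and 217 CPM in NE, and 91.9, 93.4 and 102 CPM in TDE. It fell below all other libraries, with log2 fold changes of -0.89 ± 0.13 (adjusted p = 0.00361 by edgeR) and -1.11 ± 0.13 (adjusted p = 0.00123). C5ar2, the second C5a receptor and the neighbour of C5ar1 on chromosome 7 (16234585 to 16259540 for the pair), stood at 22.1, 19.8 and 22.5 CPM in CTR, 26.6, 24.5 and 21.6 CPM in NE, and 10.1, 12.2 and 11.2 CPM in TDE. Its log2 fold changes of -0.94 ± 0.14 (adjusted p = 0.00361 by edgeR) and -1.12 ± 0.14 (adjusted p = 0.00147) were close to those of C5ar1. Per length, C3ar1 was 1.29 ± 0.20 (SD, n = 3) times C5ar1 in CTR, 1.14 ± 0.14 times in NE and 3.96 ± 0.21 times in TDE. The call of C3ar1 against NE was lost without TDE replicate 1 or TDE replicate 3, with adjusted p up to 0.0530.

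**Figure D2:**
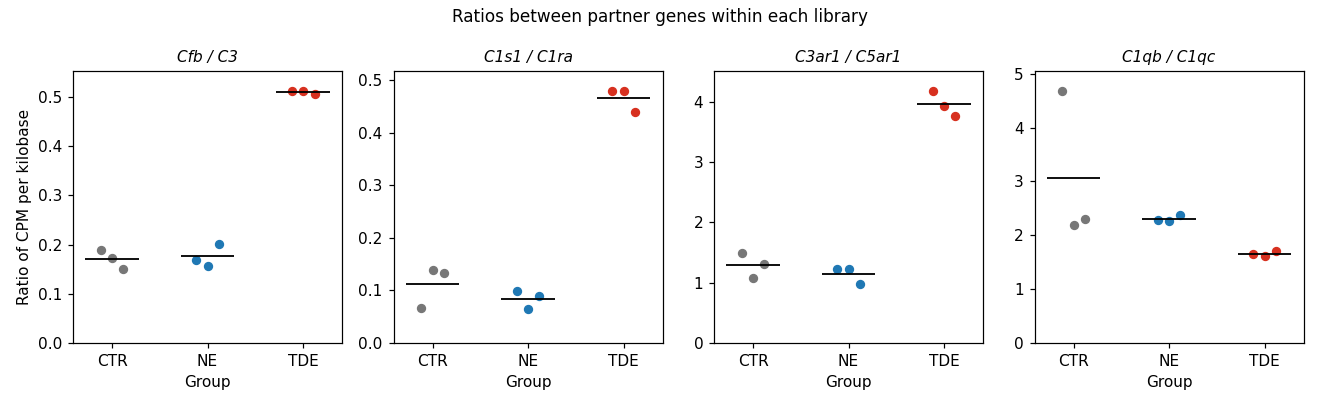
Ratio of CPM per kilobase between partner genes in each library of CTR, NE and TDE; points are libraries and the black line is the mean of 3. For Cfb/C3, C1s1/C1ra and C3ar1/C5ar1 the TDE points lie above all others, and for C1qb/C1qc they lie below, where CTR replicate 1 is the high point at 4.68.

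Among the membrane regulators, Cr1l, which encodes Crry, a rodent inhibitor of the C3 convertases, stood at 79.6, 90.8 and 86.0 CPM in CTR, 87.2, 83.3 and 94.3 CPM in NE, and 50.7, 56.7 and 54.4 CPM in TDE. It was lower in all TDE libraries, with log2 fold changes of -0.66 ± 0.12 (adjusted p = 0.00766 by edgeR) and -0.71 ± 0.12 (adjusted p = 0.00581). The call of Cr1l against CTR was lost with library totals alone, with no filter or without TDE replicate 1 (adjusted p up to 0.0779 over all alternatives). Cd55, which speeds the decay of the convertases, stood at 5.20, 6.37 and 9.23 CPM in CTR, 8.17, 8.73 and 7.56 CPM in NE, and 3.66, 4.31 and 4.23 CPM in TDE. It fell against NE (-1.002 ± 0.23, adjusted p = 0.0216 by edgeR) and just missed the threshold against CTR (-0.77 ± 0.23, adjusted p = 0.0518). The call of Cd55 against NE held in 8 of 17 alternatives. It was lost with library totals alone, no filter, a replicate block or without any 1 NE or TDE library, with adjusted p up to 0.102. With CTR replicate 1 left out, Cd55 was at -1.01 ± 0.16 against NE (adjusted p = 0.00122 by edgeR). Cd59a, which blocks the membrane attack complex, stood at 2.77 to 7.35 CPM in CTR, 2.93 to 3.61 CPM in NE and 3.99 to 5.32 CPM in TDE, and passed in neither comparison. Vsig4, a macrophage receptor for C3b, was at 1.06 to 7.16 CPM in CTR, 1.06 to 1.44 CPM in NE and 0.418 to 0.942 CPM in TDE, with log2 fold changes of -2.30 ± 0.75 (adjusted p = 0.0722 by edgeR) and -1.01 ± 0.76 (adjusted p = 0.480). Its TDE libraries were the lowest and CTR replicate 1, at 7.16 CPM, was the highest, and without that library the first value was -0.91 ± 0.38. Serping1, the C1 inhibitor, held 0 to 5 reads per library and was not tested.

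**Figure D3:**
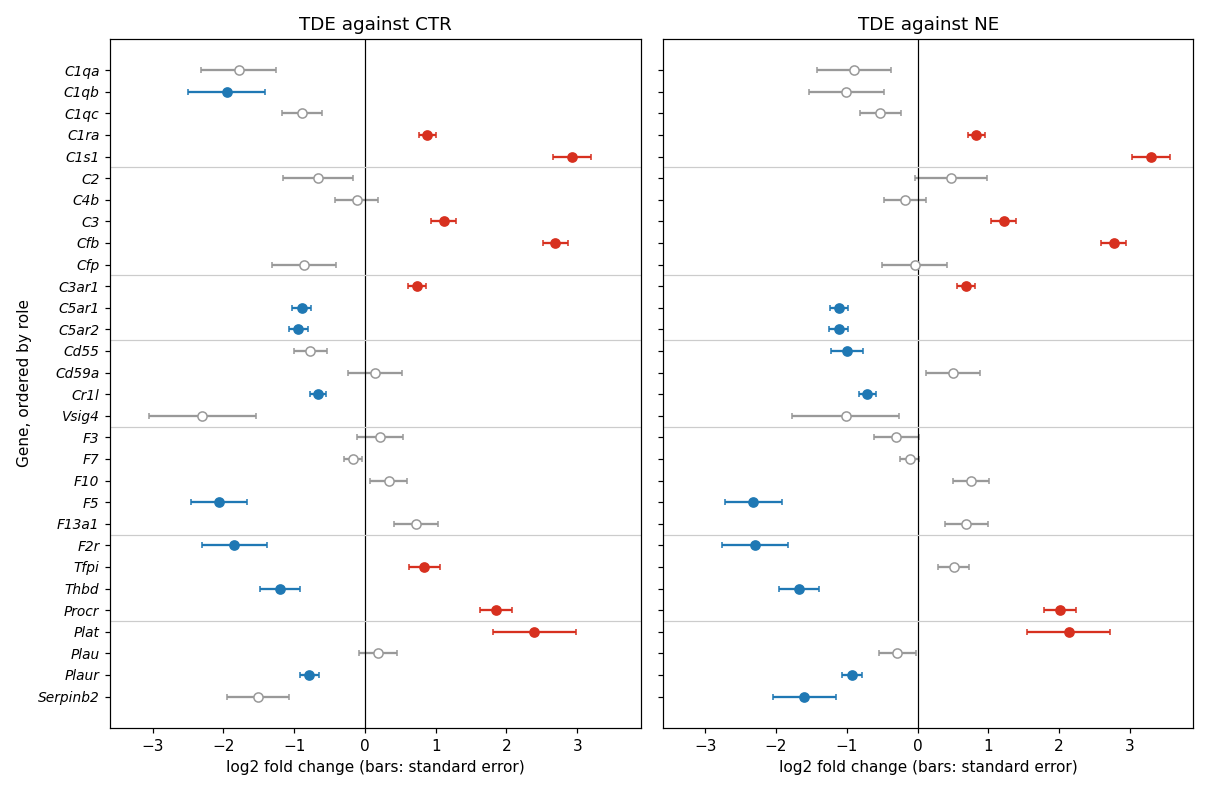
Log2 fold change of each tested gene in TDE against CTR (left) and TDE against NE (right), with bars for the standard error and grey lines between roles; filled red points rose and filled blue points fell at an adjusted p under 0.05, open grey points missed it. Both panels share the TDE libraries, and in both C1s1, Cfb, Plat and Procr are farthest to the right among the filled points and F5 farthest to the left.

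Of the clotting factors, only F5 passed the test. F5, which encodes factor V, the cofactor of factor X in making thrombin, stood at 40.8, 93.9 and 132 CPM in CTR, 121, 124 and 74.0 CPM in NE, and 22.1, 20.0 and 21.8 CPM in TDE. The controls were widely spread with CTR replicate 1 lowest, and all TDE libraries were lower still. The log2 fold changes were -2.06 ± 0.40 (adjusted p = 0.0107 by edgeR) and -2.32 ± 0.40 (adjusted p = 0.00697), and the call against CTR was lost when any 1 TDE library was left out (adjusted p up to 0.0554). F5 is a long gene of 7430 bases. Genes over 3000 bases had a median log2 fold change of 0.17 in TDE against CTR with CTR replicate 1 and 0.02 without it. When that library was left out, F5 was at -2.42 ± 0.22 against CTR (adjusted p = 6.34e-05 by edgeR). F7 and F10, which encode factors VII and X and are neighbours on chromosome 8 (13026034 to 13056676 for the pair), were high in all groups. F7 stood at 321 to 398 CPM in CTR, 318 to 343 CPM in NE and 299 to 318 CPM in TDE, with log2 fold changes of -0.17 ± 0.13 and -0.11 ± 0.13. F10 stood at 464, 244 and 234 CPM in CTR, 223, 219 and 262 CPM in NE, and 398, 396 and 395 CPM in TDE. Its TDE libraries lay above NE but under CTR replicate 1, with log2 fold changes of 0.33 ± 0.26 (adjusted p = 0.374 by edgeR) and 0.76 ± 0.26 (adjusted p = 0.0969). F13a1, the fibrin-crosslinking subunit of factor XIII, stood at 105, 246 and 273 CPM in CTR, 220, 223 and 195 CPM in NE, and 333, 357 and 340 CPM in TDE. The TDE libraries were highest, but the test was missed (0.72 ± 0.31, adjusted p = 0.136 by edgeR, and 0.69 ± 0.31, adjusted p = 0.198). F3, which encodes tissue factor, the initiator of clotting, was at 0.507 to 1.36 CPM over all libraries with overlapping groups (0.21 ± 0.33 and -0.30 ± 0.32). The hepatocyte markers Ttr and Serpina1a held no reads in any library, and Alb and Apoa1 were at most 0.277 and 0.0554 CPM.

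The membrane partners of protein C activation moved apart. Procr, the endothelial protein C receptor, stood at 15.3, 9.39 and 9.18 CPM in CTR, 8.76, 9.60 and 11.8 CPM in NE, and 42.1, 39.1 and 40.7 CPM in TDE. TDE libraries were above all others, at log2 1.85 ± 0.22 (adjusted p = 0.00142 by edgeR) and 2.01 ± 0.23 (adjusted p = 0.000952). Thbd, which encodes thrombomodulin, the thrombin-binding partner that makes it activate protein C, stood at 7.03, 15.7 and 14.2 CPM in CTR, 18.0, 18.3 and 15.1 CPM in NE, and 4.99, 5.40 and 5.69 CPM in TDE. It was lowest in TDE, at log2 -1.20 ± 0.28 (adjusted p = 0.0230 by edgeR) and -1.68 ± 0.28 (adjusted p = 0.00606). The call of Thbd against CTR held in 10 of 17 alternatives of the fit, and that against NE in all 17. The former was lost with library totals alone, a replicate block or only the 6 libraries compared. It was also lost without CTR replicate 2 or any 1 TDE library, with adjusted p up to 0.101.

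F2r, which encodes the thrombin receptor PAR1, stood at 2.09, 3.43 and 2.52 CPM in CTR, 3.93, 3.42 and 3.68 CPM in NE, and 1.39, 0.437 and 0.418 CPM in TDE. All TDE libraries were lower, with 1 of them well above the other 2, and the log2 fold changes were -1.84 ± 0.46 (adjusted p = 0.0300 by edgeR) and -2.29 ± 0.46 (adjusted p = 0.0134). The call against CTR was lost with a replicate block, with only the 6 libraries compared, and without CTR replicate 2, TDE replicate 2, TDE replicate 3 or any NE library (adjusted p up to 0.113). That against NE was lost without NE replicate 1, TDE replicate 2 or TDE replicate 3 (adjusted p up to 0.0619). With CTR replicate 1 left out, F2r was at -2.31 ± 0.39 against NE (adjusted p = 0.00161 by edgeR). F2rl1, which encodes PAR2, held 0 to 3 reads and was not tested. Tfpi, the inhibitor of tissue factor with factor VII, stood at 4.37, 6.82 and 7.87 CPM in CTR, 9.18, 7.37 and 7.41 CPM in NE, and 11.3, 11.4 and 11.5 CPM in TDE. It rose against CTR (0.84 ± 0.22, adjusted p = 0.0366 by edgeR) and missed the threshold against NE (0.51 ± 0.22, adjusted p = 0.184). Without CTR replicate 1 Tfpi passed against NE as well (0.50 ± 0.12, adjusted p = 0.00825 by edgeR). The call of Tfpi against CTR held in 6 of 17 alternatives and was lost without CTR replicate 2 or any 1 NE or TDE library, with adjusted p up to 0.119. The endothelial markers Cdh5 and Tek were at most 0.316 and 0.190 CPM, while Pecam1 was at 9.44 to 13.4 CPM in CTR and NE and 32.5 to 34.7 CPM in TDE, and the list of 4 such genes summed to 9.70 to 14.3 CPM in CTR, 12.3 to 14.4 CPM in NE and 33.1 to 35.5 CPM in TDE.

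In fibrinolysis, the activator tPA rose from a low level while the receptor of uPA fell. Plat, which encodes tPA, stood at 0.254, 2.48 and 1.31 CPM in CTR, 1.86, 1.84 and 1.24 CPM in NE, and 7.48, 6.55 and 7.73 CPM in TDE. TDE libraries were above all others, with CTR replicate 1 far under the other controls, and the log2 fold changes were 2.39 ± 0.59 (adjusted p = 0.0281 by edgeR) and 2.14 ± 0.58 (adjusted p = 0.0443). Without CTR replicate 1 the first was 1.91 ± 0.28. The call of Plat against CTR was lost with a replicate block, with only the 6 libraries compared, and without NE replicate 1, NE replicate 2 or any 1 TDE library (adjusted p up to 0.0930). That against NE was lost with library totals alone, no filter or a replicate block, and without CTR replicate 3 or any 1 NE or TDE library (adjusted p up to 0.152). With CTR replicate 1 left out, Plat was at 2.13 ± 0.25 against NE (adjusted p = 0.000168 by edgeR). Plau, which encodes uPA, overlapped between the groups, at 11.9 to 25.3 CPM in CTR, 24.0 to 28.8 CPM in NE and 17.7 to 24.99 CPM in TDE. Per length, Plat was 0.057 ± 0.036 (SD, n = 3) of Plau in CTR, 0.059 ± 0.017 in NE and 0.313 ± 0.033 in TDE. Plaur, the receptor that holds uPA at the cell surface and whose upstream stretch holds AP-1 and C/EBP matches, stood at 84.3, 104 and 91.1 CPM in CTR, 92.6, 99.4 and 115 CPM in NE, and 53.8, 53.8 and 54.0 CPM in TDE. It was lower in every TDE library, at log2 -0.79 ± 0.13 (adjusted p = 0.00655 by edgeR) and -0.93 ± 0.14 (adjusted p = 0.00319). The call of Plaur against CTR was lost with library totals alone (adjusted p = 0.0532 by edgeR).

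Serpinb2, which encodes PAI-2, an inhibitor of uPA, stood at 1.65, 5.87 and 4.79 CPM in CTR, 4.72, 3.85 and 4.57 CPM in NE, and 1.88, 1.09 and 1.36 CPM in TDE. TDE libraries were below NE and overlapped CTR replicate 1, with log2 fold changes of -1.51 ± 0.44 (adjusted p = 0.0509 by edgeR) and -1.60 ± 0.44 (adjusted p = 0.0473). The second call was lost in 11 of 17 alternatives, including the removal of CTR replicate 2, CTR replicate 3 or any 1 NE or TDE library, with adjusted p up to 0.174. The groups share 1 estimate of the spread, so CTR libraries bear on this comparison too. With CTR replicate 1 left out, Serpinb2 was at -1.61 ± 0.22 against NE (adjusted p = 0.000457 by edgeR). Serpinb2 shares 291 of its 2349 exon bases with Serpinb10 on the same strand, which held 60 to 135 reads per library in CTR and NE and 19 to 23 reads in TDE.

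None of the 30 genes passed the threshold between BMDCs given NIH-3T3 exosomes and controls, and edgeR's quasi-likelihood test called 0.0% of all genes in NE against CTR. At an unadjusted p under 0.05 there were 487 genes in all and 0 of the 30, DESeq2 called 3 genes and limma voom 18, and 0 of the 30 were among either. The groups did not overlap for 3 of the 30 genes, C2 (lower in NE), C5ar1 and F3 (both higher), where 7.71% of all genes did not overlap. The median log2 fold change of the 30 was 0.05 and its median size 0.26, against 0.29 for all genes. These values do not show that NE and CTR were alike: the standard errors ran from 0.12 for C1ra and Cr1l to 0.71 for Vsig4 on the log2 scale.

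Without CTR replicate 1, 23 of 30 genes were called in TDE against CTR (11 higher, 12 lower) and 24 in TDE against NE (11 higher, 13 lower), where 34.4% and 40.7% of all genes were called, and the common dispersion over all genes was 0.0150 in place of 0.106. The genes added against CTR were C1qa, C1qc, Cd55 and Serpinb2, which were lower, and Cd59a, F10 and F13a1, which were higher. F10 was at log2 0.72 ± 0.09 (adjusted p = 0.000368 by edgeR), Cd59a at 0.75 ± 0.19 (adjusted p = 0.0144), F13a1 at 0.39 ± 0.09 (adjusted p = 0.00817), Cd55 at -0.94 ± 0.18 (adjusted p = 0.00360) and Serpinb2 at -1.89 ± 0.23 (adjusted p = 0.000333). Those not called in TDE against CTR even then were C2, C4b, Cfp, Vsig4, F3, F7 and Plau. The genes added against NE were C1qa, C1qb, C1qc and Vsig4, which were lower, and Cd59a, F10, F13a1 and Tfpi, which were higher.

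**Figure D4:**
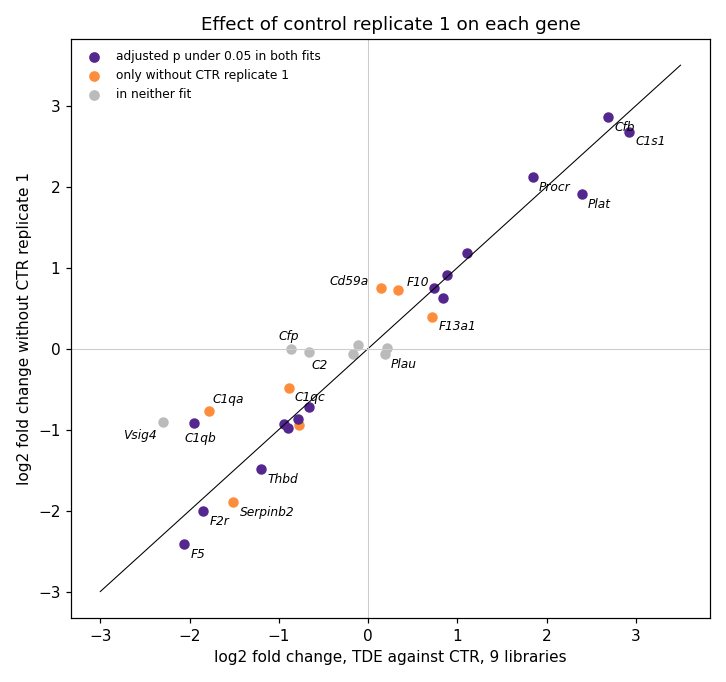
Log2 fold change in TDE against CTR from all 9 libraries (x axis) and without CTR replicate 1 (y axis) for the 30 tested genes; the line marks equal values. Purple points were called in both fits, orange points in the second one alone and grey points in neither, and C1qa, C1qb, Vsig4 and Cfp lie well above the line.

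Other genes of these pathways were taken from a list of 70, of which 69 were found by name, 33 passed the filter and 10 were called in TDE against CTR (16.9% of all genes were), 2 higher and 8 lower, where 7.57% of all genes were higher and 9.34% lower. In TDE against NE 11 of 33 were called (13.9% of all genes), 3 higher and 8 lower (6.73% and 7.21%). C1rl, a relative of C1r, rose and stood at 22.3 to 25.2 CPM in CTR, 19.1 to 19.7 CPM in NE and 49.1 to 52.8 CPM in TDE (log2 1.09 ± 0.11 and 1.40 ± 0.11).

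Among the listed genes that were called, the 3 with the lowest fold change against CTR were Fcnb, Gas6 and S100a10. Fcnb, a ficolin that starts the lectin pathway and is made by neutrophils and their precursors, stood at 25.8 to 44.1 CPM in CTR, 24.3 to 29.3 CPM in NE and 3.99 to 4.77 CPM in TDE (log2 -2.91 ± 0.23 and -2.63 ± 0.23). Gas6, a vitamin K-dependent ligand of the TAM receptors, stood at 15.8 to 20.0 CPM in CTR, 15.6 to 19.5 CPM in NE and 3.99 to 4.60 CPM in TDE (log2 -2.10 ± 0.16 and -2.00 ± 0.16). S100a10, part of a surface receptor for tPA and plasminogen, stood at 126 to 636 CPM in CTR with CTR replicate 1 highest, 126 to 174 CPM in NE and 68.3 to 76.3 CPM in TDE. Its log2 fold change against CTR was -2.08 ± 0.57 (adjusted p = 0.0408 by edgeR), and it fell in size to -0.96 ± 0.14 without that library. The call of S100a10 against CTR held in 9 of 17 alternatives, and those of Fcnb and Gas6 in all 17. Against NE it was -1.002 ± 0.55 (adjusted p = 0.310 by edgeR).

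Complement receptors 3 and 4, which bind C3b fragments, share the chain encoded by Itgb2. Itgam, the partner of Itgb2 in receptor 3, stood at 366, 1671 and 1951 CPM in CTR, 2028, 2045 and 1466 CPM in NE, and 3386, 3179 and 3431 CPM in TDE. TDE libraries were highest, but the spread of CTR was wide and the test was missed (log2 1.33 ± 0.51, adjusted p = 0.108 by edgeR, and 0.85 ± 0.50, adjusted p = 0.349). Without CTR replicate 1 the value against CTR was 0.87 ± 0.15 (adjusted p = 0.00192). Itgax, its partner in receptor 4, fell against NE (-0.54 ± 0.14, adjusted p = 0.0327 by edgeR) and was at -0.41 ± 0.14 (adjusted p = 0.0733) against CTR, and Itgb2 was at 0.47 ± 0.29 and 0.09 ± 0.29. Pros1, which encodes protein S, the cofactor of protein C, fell against NE (-0.85 ± 0.23, adjusted p = 0.0412 by edgeR) and was at -0.46 ± 0.23 (adjusted p = 0.187) against CTR. The calls against NE held in 8 of 17 alternatives for Itgax (adjusted p up to 0.153) and 7 of 17 for Pros1 (adjusted p up to 0.145). Both were lost without CTR replicate 2, NE replicate 1, NE replicate 2 or any 1 TDE library, and that of Pros1 also without NE replicate 3.

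Several of the genes that rose, among them C3, C1s1, C1ra and Plat, are also expressed by fibroblasts. A list of 8 fibroblast genes, of which 6 were tested, summed to 6.46 to 7.61 CPM in CTR, 6.29 to 7.71 CPM in NE and 10.8 to 11.8 CPM in TDE. In TDE against CTR, Dcn and Pdgfrb rose, Dcn from 0.127 to 0.587 CPM in CTR to 3.08 to 3.49 CPM in TDE, while Col1a1 was at 1.56 to 2.47 CPM in CTR and 0.873 to 1.496 CPM in TDE and Pdgfra was at most 0.149 CPM in any library and at 0 in 3. A list of 5 genes of megakaryocytes and platelets, cells that hold F5 and F13a1, summed to 81.0 to 280 CPM in CTR, 81.6 to 104 CPM in NE and 83.8 to 88.8 CPM in TDE. Pf4 was the largest part of the sum, while Itga2b (log2 -1.78 ± 0.27), Gp1bb (-3.02 ± 0.86) and Gp9 (-2.18 ± 0.41) fell in TDE against CTR, Itga2b and Gp9 also against NE, and Ppbp rose against CTR (0.73 ± 0.19). Epithelial or tumor cell markers summed to 8.22 to 8.90 CPM, 10.9 to 12.7 CPM and 4.37 to 7.05 CPM. Cdh1 was the largest part, at 5.96 to 8.08 CPM in CTR, 9.75 to 12.3 CPM in NE and 4.10 to 4.81 CPM in TDE. Epcam, Krt18 and Krt19 were at most 0.696, 0.634 and 0.507 CPM in any library and did not pass the filter. The part of such cells in these results was not tested.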

How the data were processed

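The authors deposited estimated counts (expected counts) of reads per gene for 9 libraries, without normalization, together with a mean per group and a gene length. Per the labels' processing notes, TopHat2 2.1.1, R 3.3.1 and DESeq2 1.24.0 were used, and the counting program, the genome build and the strand setting are not given in the sources used here. The authors' means were not used.

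Counts were rounded, filtered with filterByExpr and normalized by TMM, and edgeR 4.0.16 (R 4.3.3) fitted a mean for each group over the 9 libraries together. Pairs of groups were compared by the quasi-likelihood F test with Benjamini-Hochberg adjustment over all 15028 genes tested and a threshold of 0.05. Standard errors of log2 fold changes are their size over the root of F. CPM are TMM-normalized, and CPM per kilobase uses the deposited length. The code was tested on simulated data.

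Genes were named by role. All 33 are accounted for, and of the other pathway genes the 3 highest and 3 lowest fold changes among those called and a few fixed names are given, apart from items not reported here. The members and lists were chosen with earlier results of these data known.

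Alternatives were DESeq2 1.42.0, limma voom with sample weights (limma 3.58.1), library totals alone, median-ratio factors, no filter, at least 10 counts in every library, the 6 libraries of a pair, a replicate block, a log2 fold change of at least 1, and each library left out. Positions and overlaps came from GENCODE vM21 (GRCm38) and promoters from RefSeq (GRCm38.p6). Tables and plots used Python 3.11.15.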

Additional observations from a re-analysis of the deposited data

How the results depend on the processing

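Of the 16 genes called in TDE against CTR, 8 were called in all alternatives of the fit run for them, and of the 16 in TDE against NE 11 were. Of these, 4 and 8 also had a log2 fold change of at least 1 in size. The number of the 30 genes called in TDE against CTR was 9 at a log2 fold change of at least 1 and 10 to 23 when 1 library was left out, lowest without any TDE library and highest without CTR replicate 1. Against NE it was 25 with limma voom and 11 to 24 with 1 library left out. With only the 6 libraries compared, it was 11 against CTR and 24 against NE. Among all genes, the 2541 called in TDE against CTR became 1152 when only the 6 libraries compared were fitted, 7886 with limma voom, 1583 at a log2 fold change of at least 1 and 1103 to 5263 with 1 library left out. The 2095 in TDE against NE became 6072, 8311, 1307 and 970 to 6223 in the same order. In NE against CTR the 0 genes became 3 with DESeq2, 18 with limma voom and 0 to 3 with 1 library left out. Of the other pathway genes, 10 were called in TDE against CTR, 24 with limma voom and 7 to 16 with 1 library left out. The causes were not tested.

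The numbers of the replicates are shared by the groups, but no source states a pairing, and the correlations of the deviations of same-numbered libraries, -0.035, -0.056 and 0.072 in TDE against CTR, 0.027, -0.039 and -0.071 in TDE against NE and -0.370, 0.185 and -0.585 in NE against CTR, did not show one. With a replicate block, 11 and 13 of the 30 genes were called in TDE against CTR and TDE against NE and 0 in NE against CTR, and among all genes 1285 and 1175 were called.

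In the comparisons of TDE, direction turned for C2, C4b, Cd59a, Plau and Cfp, none of which was called. With limma voom, the log2 fold change in TDE against CTR was 0.028 for C2, 0.069 for C4b and -0.14 for Plau, and that of Cfp in TDE against NE was 0.048. With 1 library left out, it ran from -0.25 to 0.11 for C4b, -0.082 to 0.75 for Cd59a and -0.072 to 0.45 for Plau in TDE against CTR, and from -0.32 to 0.051 for C4b and -0.10 to 0.079 for Cfp in TDE against NE. In NE against CTR, where none was called, 17 of the 30 genes turned under at least 1 alternative, with adjusted p of 0.211 or more. Scaling by library totals alone moved the median of all genes in NE against CTR from 0.00 to 0.12. With 3 libraries a group, a gene at 0 to 5 reads per library could not be tested for a change.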
